A study of Mus musculus with 10 samples.

Results

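The broad H3K4me3 domains described here are wide stretches of this promoter mark, free of called H3K27me3, in mouse embryonic stem cells that still carried BAF250a. They are the 1124 autosomal H3K4me3 islands of the WT library that were 10 kb or wider and overlapped no H3K27me3 island of the KO or the WT library. An island is an interval that the authors' peak caller found enriched over input. The 1124 domains were drawn from 28365 WT H3K4me3 islands, of which 27207 lay on autosomes and 1217 of these were 10 kb or wider. The other 93 wide islands overlapped H3K27me3, 57 of them in both genotypes, 8 in KO alone and 28 in WT alone. WT width and the absence of H3K27me3 thus chose the domains. Their WT values are given as a description, while the KO H3K4me3 library was not used in the choice.

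H3K4me3 is laid down at active and CpG-rich promoters by the SET1 and MLL methyltransferase complexes. At most promoters it covers a short stretch around the transcription start, and at some it spreads far along the gene. Such broad domains have been described at genes of cell identity and at strongly and steadily transcribed genes. H3K27me3, the mark of Polycomb repressive complex 2, marks silent developmental genes, and its overlap with H3K4me3 defines bivalent promoters, which the choice leaves out. BAF250a, encoded by Arid1a, is a DNA-binding subunit of the BAF (SWI/SNF) complex, which moves and evicts nucleosomes.

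The KO cells were labelled as BAF250a knockout and were exposed to 4-hydroxytamoxifen at 1 µM over 36 hours, from 4 hours after they were passaged. The WT cells were given ethanol on that schedule. Genotype and drug exposure therefore cannot be told apart. All cells came from a 129/C57BL/6 background and grew on embryonic fibroblast feeders with LIF and serum. How the allele was made, which recombinase was used and whether feeders were removed before fixation is not stated in the labels, and the island lists hold no marker by which the cell type could be checked. One H3K27me3 library, that of KO cells, is spelled H2K27me3 in its title but names the H3K27me3 antibody. Of the 10 samples of the series, 4 ChIP libraries were used. Each of these (H3K4me3 and H3K27me3, in KO and in WT) stood alone, with no replicate, so each comparison below is between those libraries and carries no p-value between genotypes.

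Reads are known only inside islands, and the total reads of a library were not analysed here. The H3K4me3 islands held 13512350 ChIP reads in 40978 KO islands and 9565481 in 28365 WT islands. Each deposited fold holds 1 constant per list that scales ChIP to input. If this constant is a ratio of depths, the ChIP library was 1.35 times as deep as its input in KO and 1.78 times in WT. Intervals given with shares are 95% Clopper-Pearson intervals, which treat islands as independent draws and say nothing of the spread between libraries.

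In WT, the domains were few but held a large part of the mark inside called islands. They made up 4.13% of autosomal H3K4me3 islands and held 14.6% of the called length and 19.2% of the ChIP reads inside those islands. Their width ran from 10 kb through a median of 11.6 kb to 43.4 kb. Of the 1124, 633 were under 12 kb, 299 were 12 to 15 kb, 148 were 15 to 20 kb and 44 were 20 kb or wider. Most were thus close to the 10 kb limit, and only a small group formed the long tail.

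The domains were strongly marked along their length. ChIP reads per domain had a median of 1460 (range 422 to 7324) and control reads a median of 138 (47 to 2199). Fold over input had a median of 6.08, against 2.86 for the other 26083 autosomal WT islands. A fold of 5 or more was reached by 761 domains (67.7%) and by 21.1% of the other islands. The mark was as dense in the next narrower islands: 123.0 reads per kb was the median over the domains and 118.3 over the 1439 islands of 8 to 10 kb without H3K27me3. Among islands without H3K27me3, pooled reads per kb were 46.0 at 1 to 2 kb, 100.2 at 4 to 6 kb and 113.3 at 6 to 8 kb, then 122.7, 126.4, 127.5 and 124.7 in the 4 width classes from 10 kb up. Across domains, width and fold were nearly unrelated (Pearson r of −0.09 and Spearman rho of −0.10 on log2 values, n = 1124, all from 1 library).

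The limit of 10 kb is a place in a continuous range. Exactly 10 kb was the width of 92 domains, and 117 autosomal WT islands without H3K27me3 measured 9.8 kb. Taken in order of position, the first 3 domains of 10 kb lay on chromosome 1, at 38049001 to 38059000, 59816801 to 59826800 and 163801401 to 163811400, with folds of 9.95, 12.2 and 15.4 over their KO islands and 7.03, 8.25 and 9.07 in WT. The first 3 islands of 9.8 kb, at chromosome 1, 13063401 to 13073200, 36990201 to 37000000 and 63156201 to 63166000, had folds of 6.65, 7.77 and 11.98 over their regions in KO and 2.68, 6.38 and 6.14 in WT. These islands sit on either side of the limit with widths that differ by a single 200 bp window.

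A small number of domains were wide without being strong. In 7 of 1124 (0.623%) the WT fold was under 2. One of them, at chromosome 11, 3080801 to 3108200, had 6078 ChIP and 4069 control reads in KO and 4165 and 2199 in WT, with folds of 1.11 and 1.06. By WT control reads, it was the only domain with a density above 3 times the median of the WT list. In KO, another of the 7, at chromosome 8, 19867401 to 19902600, had 51.5 control reads per kb, against a KO list median of 12.1. These domains were singled out after their values were seen. Without the 7, the medians given below moved by 0.01 or less on the log2 scale.

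Every domain was still marked in KO. All 1124 overlapped a KO H3K4me3 island (100%, 99.7 to 100%), where the background over all autosomal WT islands was 94.7%. Full sharing was not particular to islands of this width. All 1439 islands of 8 to 10 kb and all 2567 of 6 to 8 kb without H3K27me3 also had a KO island, whereas 90.4% of islands of 1 to 2 kb did (6495 of 7186). Of the 93 wide WT islands with H3K27me3, 92 overlapped a KO island. The KO islands at the domains numbered 1306, or 3.31% of autosomal KO islands, and held 18.5% of the KO island reads, against 19.2% held by the domains in WT.

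Most domains also kept their breadth. A KO island of 10 kb or wider was present at 987 of 1124 domains (87.8%, 85.8 to 89.7%), against a background of 16.7% over all autosomal WT islands, most of which are narrow. The widest KO island at a domain had a median of 14.2 kb, where the domains had 11.6 kb in WT. It was wider than the domain in 804 cases (71.5%), of equal width in 31 and narrower in 289 (25.7%). Breadth was kept at 44 of 44 domains of 20 kb or wider, 143 of 148 of 15 to 20 kb, 286 of 299 of 12 to 15 kb and 514 of 633 of 10 to 12 kb.

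The 137 domains without a KO island of 10 kb were mostly near misses. Of these, 119 were under 12 kb in WT. Their widest KO island had a median of 8.8 kb (range 5 to 9.8 kb). In 72 of the 137 the domain was met by several KO islands, and in 56 these summed to 10 kb or more. In the other 65 a single, narrower KO island remained. Because WT width made the choice, the reverse choice was also made. Of 2542 autosomal KO islands of 10 kb or wider without H3K27me3, 2528 overlapped a WT island (99.4%) and 980 one of 10 kb or wider (38.6%, 36.7 to 40.5%). Breadth called in WT was therefore mostly called in KO, and breadth called in KO was mostly not called in WT. With 2542 such KO islands against 1124 domains, the lower reverse share follows in part from the numbers of islands. Of the WT islands of 8 to 10 kb without H3K27me3, 748 of 1439 reached 10 kb in KO (52.0%).

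The ends of the domains lay mostly farther out in KO. Each library was called alone, and all shared regions held 12198707 ChIP reads in KO and 9285584 in WT. The part of this difference in the called widths, ends and lengths was not tested. Of 2248 ends, 1559 lay outside the WT end (69.4%), 204 at the same position and 485 inside it (21.6%). The median shift was 800 bp outward, with 5th and 95th percentiles of −1200 and 10200 bp. Outward ends had moved by a median of 1600 bp and inward ends by 600 bp. Both ends lay farther out in 563 domains and both inside in 71. No end lay more than 5 kb inside (the innermost was 3200 bp), and 278 lay more than 5 kb outside, up to 42200 bp. Ends of the islands of 8 to 10 kb without H3K27me3 showed a like pattern, with 65.0% farther out, 24.2% inside and 8.23% more than 5 kb out, against 12.4% of the domain ends. At the wide islands with H3K27me3, 53.8% of 184 ends lay farther out and 31.5% inside.

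**Figure D1:**
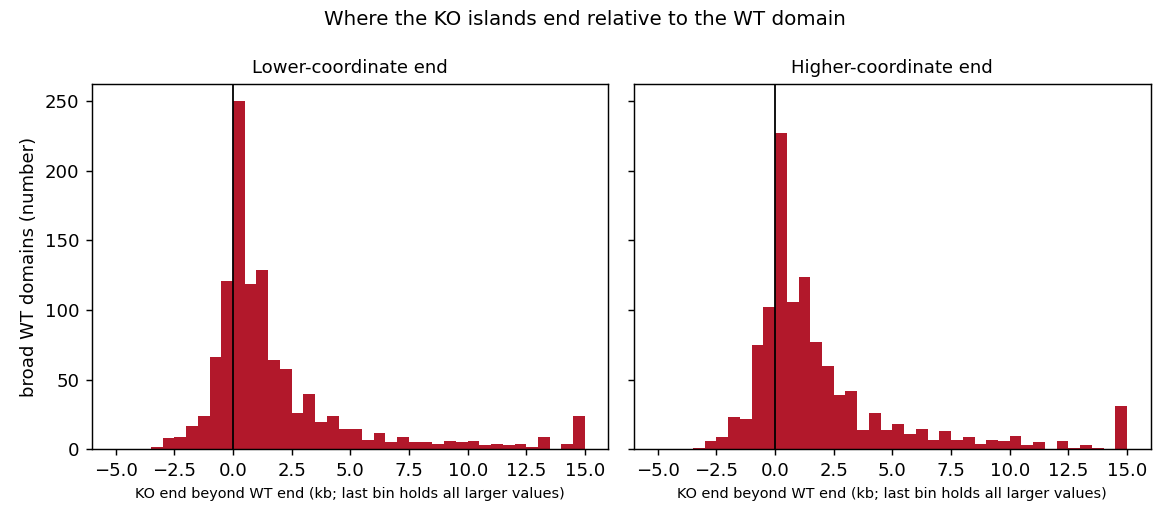
Distance in kb by which the outermost KO island reached beyond (positive) or stopped short of (negative) the WT end, in bins of 0.5 kb, for the lower-coordinate end (left) and the higher-coordinate end (right) of the 1124 domains. Both panels lean to the right of 0, with 767 lower-coordinate and 792 higher-coordinate ends farther out in KO.

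Most far outward ends took in some H3K4me3 that WT already had nearby, as they did at narrower islands. In 222 of the 278 ends that lay more than 5 kb out, the added stretch held another WT H3K4me3 island (79.9%), and WT islands covered 52.0% of the added length. The share was higher at islands without H3K27me3 of 8 to 10 kb (203 of 237 such ends, 85.7%), of 4 to 8 kb (88.6%) and under 4 kb (95.4%). Another WT island lay within 5 kb of 634 of the 1124 domains (56.4%), and of 42.3% of the other 22704 autosomal WT islands without H3K27me3. To compare such places, overlapping KO and WT islands were merged into regions. The 1124 domains lay in 1101 regions, which held 1336 KO and 1687 WT islands in all. In 304 of the 1101 (27.6%) 1 KO island spanned 2 or more WT islands, and in 118 (10.7%) 1 WT island met 2 or more KO islands. Regions with more than 1 WT island made up 35.3% of those with a domain and 12.1% of all shared regions.

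Where a domain was broken in KO, the breaks were short. More than 1 KO island was present at 182 domains (16.2%), against a background of 3.58% over all autosomal WT islands, most of which are narrow. There were 2 KO islands at 161 domains, 3 at 20 and 4 at 1. The 204 gaps between them had a median of 400 bp, the shortest the H3K4me3 setting can leave, and 184 were 600 bp or less, with the longest at 2200 bp. The domain with 4 KO islands, at chromosome 8, 72561201 to 72572200, had 1327 reads over 10 kb in KO and 1139 over 11 kb in WT, with folds of 8.96 and 6.47. KO islands covered the whole of 593 domains and 90% or more of 985, and the least covered domain was at 62.7%.

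Called length was on balance longer in KO, at the domains and over shared regions at large. The part of the higher KO read number in this was not tested. Over the 1101 regions the median was 14.6 kb in KO and 12.6 kb in WT, with a median log2 ratio of 0.15 (25th to 75th percentile 0.01 to 0.31), or 1.11-fold. KO length was longer in 828 regions (75.2%) and shorter in 235 (21.3%), close to the 72.0% longer and 19.4% shorter over all shared regions. It was 1.5-fold longer or more in 77 regions (6.99%, background 26.8%) and 1.5-fold shorter or more in 4 (0.363%, background 2.92%). The median log2 ratio over all 22295 shared autosomal regions (20 reads or more in KO and in WT) was 0.26. Regions chosen instead on the mean of the KO and WT length had a median of 0.26 and those chosen on KO width 0.33, and so the value moved with the choice.

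**Figure D2:**
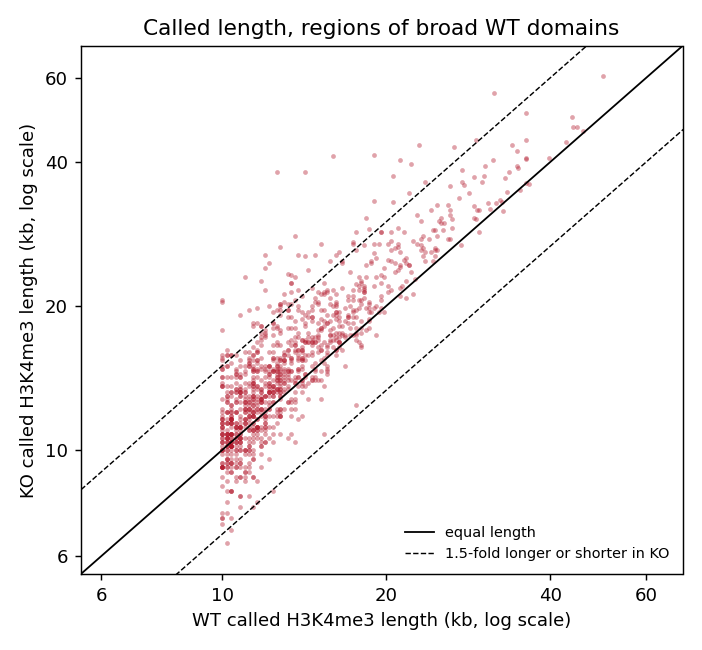
Called H3K4me3 length in kb in KO (vertical) and WT (horizontal), both on log scales, for the 1101 regions with a broad WT domain; the solid line marks equal length and the dashed lines a 1.5-fold difference. Points lie mostly above the solid line, 77 lie on or above the upper dashed line and 4 on or below the lower one.

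In the 5 domains longest in KO relative to WT, 1 KO island lay over 2 or more WT islands. At chromosome 7, 29738201 to 29749200, a single KO island of 38.2 kb with 3534 reads lay over 2 WT islands of 12.6 kb and 1269 reads, and reached 17400 bp and 9800 bp beyond the domain at its lower and higher ends. The fold there was 5.07 in KO and 4.54 in WT, a log2 ratio of 0.16 (95% counting interval −0.12 to 0.43). At chromosome 5, 53976801 to 53987200, the single KO island spanned 38.2 kb with 3593 reads at 9.34-fold, against 1582 reads at 5.26-fold over 14.2 kb in 4 WT islands. At chromosome 11, 62262001 to 62275400, 1 KO island covered 41.2 kb and 3 WT islands 16 kb, with folds of 8.41 and 7.50. The remaining pair, at chromosome 6, 39359401 to 39374000, and chromosome 14, 67682401 to 67692800, had 41.4 and 25.6 kb called in KO against 19 and 12 kb in WT. Reads per kb were lower in KO than in WT in all 5, from 86.1 to 127.0 in KO and from 100 to 137.5 in WT, without correction for depth.

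In the 5 domains shortest in KO relative to WT, 4 had both ends inside the WT ends. The shortest relative to WT was the domain at chromosome 19, 44202201 to 44212400, with 1 KO island of 6.4 kb and 958 reads against 10.2 kb and 980 reads in WT. Its fold was 14.5 in KO and 7.98 in WT. The next were at chromosome 10, 7494601 to 7505000 (6.8 kb in KO and 10.4 kb in WT), and chromosome 13, 97901601 to 97914000 (8.2 and 12.4 kb). At chromosome 2, 118857401 to 118868800, 2 KO islands covered 7.6 kb and the WT island 11.4 kb, and at chromosome 13, 120246201 to 120256200, they covered 7.8 kb and the WT islands 11.6 kb. In all 5 the fold over input was higher in KO, although the interval of the ratio included 0 in 2 of them, the chromosome 10 domain (log2 ratio 0.23, −0.24 to 0.71) and the chromosome 13 domain at 97901601 (0.43, −0.01 to 0.86).

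Enrichment over input at the domains was higher in the KO library, as it was over H3K4me3 regions at large. The median fold of the 1101 regions was 8.84 in KO and 5.92 in WT, and the pooled fold 8.41 and 5.47. The median log2 ratio was 0.60 (25th to 75th percentile 0.42 to 0.80), or 1.52-fold. KO was higher in 1079 of 1101 regions (98.0%) and in 20385 of all 22295 shared regions (91.4%). It was 1.5-fold higher or more in 583 regions (53.0%, background 56.5%) and 1.5-fold lower or more in 0 (0 to 0.334%, background 2.17%). The median over all shared regions was 0.66, so relative to it the domains lay 0.06 lower. The ratios of the domains were closer to one another, with an interquartile range of 0.38 against 0.61 over all shared regions. The domains also held far more reads, a median of 1996 in KO and 1538 in WT against 293 and 209. Each fold ratio includes the constants that scale the lists to their inputs, given below, of which the KO constant is larger. Before that scaling, ChIP reads per kb at the domains had a median log2 ratio of 0.17 and control reads per kb −0.04.

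Some domains had the same called interval in both libraries. At 8 domains a single KO island had exactly the ends of the WT domain, with widths of 10 to 19.4 kb. These held 15143 ChIP and 1355 control reads in KO, and 14308 ChIP and 1416 control reads in WT. The pooled fold was 8.30 in KO and 5.68 in WT, and KO was higher in 8 of 8. The ChIP reads alone differed by a factor of 1.06 and the control reads by 0.957. The fold also holds a constant that scales each list to its own input, 0.743 in KO and 0.562 in WT, which is the same for every island of a list.

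Reads scaled to the total over shared regions removed any change common to the list. On that scale the domains had a median log2 KO over WT of −0.07 (25th to 75th percentile −0.19 to 0.08), against 0.04 over all shared regions, and 684 of 1101 (62.1%) were lower in KO, against 45.9% of all shared regions. They were 1.5-fold higher or more in 17 regions (1.54%, background 16.1%) and 1.5-fold lower or more in 13 (1.18%, background 5.97%). The sign depended on the scale. Reads per kb of called length, scaled to the pooled reads per kb of all shared regions, had a median of 0.07, higher in KO. The KO over WT factor of that scale was 1.07, against 1.31 for reads. For regions chosen on the mean of KO and WT length the scaled reads gave −0.00144. Pooled over the domains, unscaled reads per kb were 133.8 in KO and 119.7 in WT, a ratio of 1.12, against 1.07 over all shared regions. By these unscaled reads per kb, 17 regions were 1.5-fold higher or more in KO (1.54%, background 11.7%) and 0 were 1.5-fold lower (0 to 0.334%, background 1.49%). No direction of scaled reads at the domains can be given beyond these choices.

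The domains continued a trend over width that levelled off below 10 kb. In shared regions without H3K27me3, the median log2 KO over WT length was 0.74 where the widest WT island was under 1 kb, 0.42 at 1 to 2 kb, 0.23 at 4 to 6 kb and 0.14 at 8 to 10 kb. It was 0.14, 0.18, 0.14 and 0.10 in the 4 classes from 10 kb up. Scaled reads went from 0.54 under 1 kb to −0.06 at 4 to 6 kb and −0.09 at 8 to 10 kb, and lay between −0.08 and −0.03 in the 4 widest classes. The fold ratio was highest at 1 to 2 kb (0.78), lowest at 8 to 10 kb (0.58) and 0.71 in the 43 regions of 20 kb or more. Islands were chosen by WT width throughout, so the narrow classes hold places where the WT call was short. By called length and scaled reads, the broad domains were close to the islands of 8 to 10 kb.

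**Figure D3:**
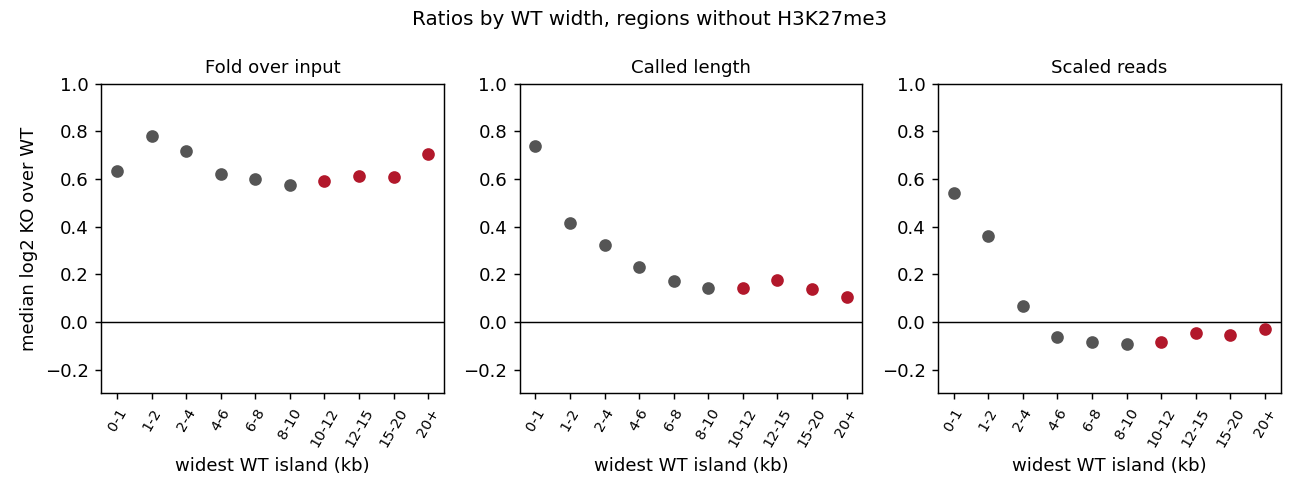
Median log2 KO over WT of fold over input (left), called length (middle) and scaled reads (right) in shared autosomal regions without H3K27me3, by the width in kb of the widest WT island; grey points are classes under 10 kb and red points classes of 10 kb or more. The red points lie near the grey points of 4 to 10 kb and apart from those under 4 kb for length and scaled reads.

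Wide WT islands with H3K27me3 were set beside the domains. Their 90 regions without a domain had a median fold of 5.73 in KO and 3.78 in WT, a median log2 ratio of 0.58 against 0.60 for the domains. Called length did not lean to KO there: the median log2 ratio was 0.00, with 41 regions longer and 41 shorter in KO. Scaled reads had a median of −0.17, and 71 of 90 were lower in KO. A KO island of 10 kb or wider was present at 73 of the 93 islands (78.5%, 68.8 to 86.3%), against 87.8% of the domains (85.8 to 89.7%). Whether these differences exceed the spread between libraries could not be tested with 1 library each.

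The fold ratio moved with the control reads. Across the 1101 regions the log2 fold ratio had a Pearson r of −0.75 and a Spearman rho of −0.75 with the log2 ratio of control reads per kb. Control reads stand in the denominator of the fold, so the points share their counting error as well as their library. Control reads per kb had a median of 11.2 in both KO and WT, and their log2 ratio a median of −0.04 (25th to 75th percentile −0.21 to 0.15). In the 276 regions with the lowest WT fold the median fold was 6.21 in KO and 3.62 in WT, and in the 275 with the highest 12.7 and 9.22. The log2 fold ratio was 0.83 in the first and 0.42 in the second, while the log2 ratio of control reads per kb was −0.24 and 0.16. WT fold is part of the ratio, so this order is a description. The part of the input in it was not tested.

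**Figure D4:**
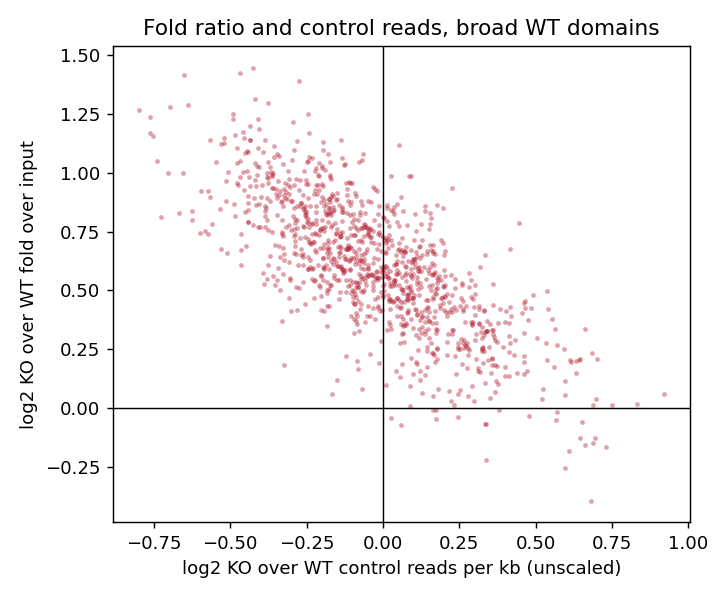
Log2 KO over WT fold over input (vertical) against log2 KO over WT control reads per kb, not scaled for depth (horizontal), 1 point per region with a broad WT domain (n = 1101). The fold ratio is lower where the control reads are higher in KO, and 22 regions lie below 0.

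At the extremes of the fold ratio, control reads per kb differed in the opposite direction. Control reads are part of the ratio by which these domains were picked, so this is a description. The highest ratio was at chromosome 1, 88197201 to 88208600, with 1781 ChIP and 249 control reads in KO and 923 and 266 in WT over its region. The folds were 5.32 and 1.95, a log2 ratio of 1.45 (1.17 to 1.72). With a WT fold of 1.96 of its own, this domain was 1 of the 7 weak domains. At chromosome 1, 16088001 to 16099400, 1949 ChIP and 84 control reads in KO stood against 1428 and 125 in WT, with folds of 17.2 and 6.42. At chromosome 5, 125864801 to 125875800, the folds were 7.48 and 2.80, at chromosome 14, 64121601 to 64132000, 10.5 and 3.99, and at chromosome 3, 89046401 to 89058200, 5.43 and 2.18. Control reads per kb were lower in KO in all 5, from 7.92 to 16.0 in KO and from 10.96 to 22.3 in WT.

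Few domains had a lower fold in KO, and for most of the lowest the counting interval included no difference. The lowest was at chromosome 8, 74469401 to 74481000, with 1560 ChIP and 183 control reads over 18.4 kb in KO and 1065 and 72 over 11.6 kb in WT. Its folds were 6.33 and 8.31, a log2 ratio of −0.39 (−0.80 to 0.02). The strongest domain by WT fold, at chromosome 3, 75452001 to 75462200, had 15.1 in KO and 18.0 in WT (log2 −0.25, −0.73 to 0.23). At chromosome 16, 36067001 to 36077200, the folds were 9.73 and 11.3, and at chromosome 16, 4677201 to 4687600, 7.53 and 8.53, and both intervals included 0. The fifth, at chromosome 8, 19867401 to 19902600, was one of the 7 weak domains, with 1.65 and 1.85 and an interval of −0.29 to −0.04. Control reads per kb were higher in KO in all 5, from 8.60 to 51.5 in KO and from 5.69 to 31.0 in WT. Here too they are part of the ratio that picked the domains.

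The 5 widest domains were covered by KO islands to 98.2% or more. The widest, at chromosome 13, 21997201 to 22040600 (43.4 kb), was covered to 98.2% by 3 KO islands, the longest of 20.6 kb. Its region held 5541 reads over 47.4 kb in KO and 6176 over 44.8 kb in WT, with folds of 9.36 and 9.41. The domain at chromosome 11, 68847601 to 68890400 (42.8 kb), had 6093 reads and a fold of 7.97 in KO and 6487 reads and 5.73 in WT. At chromosome 13, 23506601 to 23549200 (42.6 kb), a single KO island of 46.4 kb held 6897 reads at 11.2-fold, and WT had 7426 reads at 8.70-fold. The fourth, at chromosome 11, 69465601 to 69505600 (40 kb), had 7159 reads at 8.02-fold in KO and 4797 at 3.88-fold in WT. The fifth, at chromosome 19, 8942401 to 8978600, measured 36.2 kb in KO and 36.2 kb in WT, with 5567 and 4647 reads and folds of 8.51 and 5.35. Scaled reads in these 5 ranged from −0.55 to 0.18 on the log2 scale.

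The domains with most WT reads crowded in one stretch of chromosome 13. Of the 5 with most reads, 4 lay between 21249201 and 23640400 of that chromosome, the other being the domain at chromosome 11, 68847601. Besides those already given, they were at 23605801 to 23640400, with 5789 reads at 12.6-fold in KO and 5413 at 10.5-fold in WT over its region, and at 21249201 to 21277400, with 5149 reads at 13.1-fold in KO and 5266 at 8.60-fold in WT. The stretch of 2.39 Mb was singled out after its values were seen. It held 9 domains of 225.6 kb in all, 5 of them among the 44 of 20 kb or wider.

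All 9 domains of that stretch had lower scaled reads in KO. By reads per kb, scaled to the pooled reads per kb of all shared regions, 5 were lower and 4 higher. The scales differ in their KO over WT factor, 1.31 for reads and 1.07 for reads per kb. WT reads set the bounds of the stretch and stand in the denominator of the scaled ratio, so these values are a description. Of the other 1092 regions, 675 (61.8%) had lower scaled reads. Their regions held 36849 reads in KO and 37542 in WT, while the other 1092 regions held 2414691 in KO and 1858694 in WT. The median log2 scaled ratio was −0.43 (range −0.59 to −0.08), against −0.06 for the other domains and 0.02 for the other 38 regions with a domain of 20 kb or wider. Per kb of called length, the scaled log2 ratio had a median of −0.08 (range −0.35 to 0.18), against 0.07 for the other domains. The log2 fold ratio had a median of 0.26 (−0.01 to 0.61), against 0.60 elsewhere. Called length hardly differed (median log2 0.02). The 43 shared regions of the stretch without a domain had a median log2 scaled ratio of −0.34 (range −0.74 to 0.96), with 30 lower and 13 higher in KO. Per kb, 20 of them were lower and 23 higher. Control reads per kb were also relatively higher in KO there, with a median log2 ratio of 0.16 against −0.05 for the other domains. Their part in the result was not tested.

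**Figure D5:**
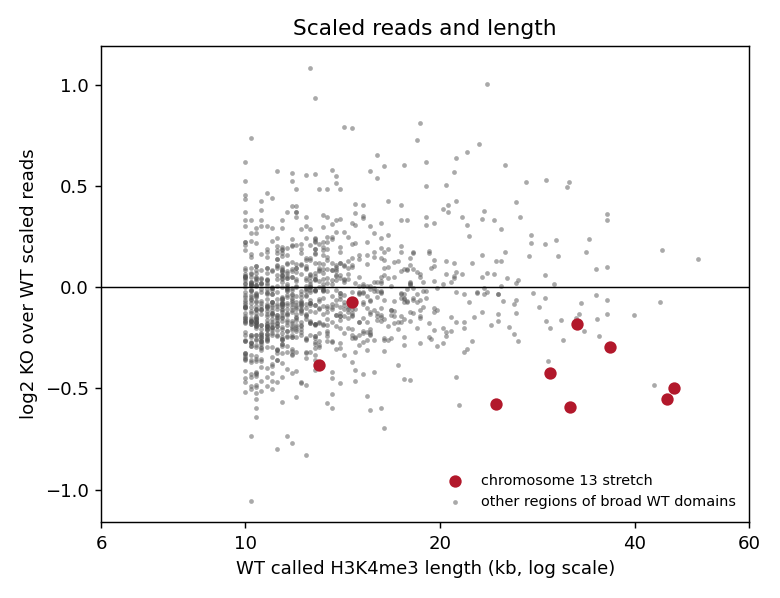
Log2 KO over WT scaled reads (vertical) against WT called length in kb on a log scale (horizontal), 1 point per region with a broad WT domain; large red points are the 9 regions of the chromosome 13 stretch and small grey points the other 1092. The red points all lie below 0, between −0.59 and −0.08, whereas grey points lie on both sides of 0. Per kb of called length, scaled to the pooled reads per kb of all shared regions, 4 of the 9 were above 0. The stretch was bounded by domains picked on WT reads, which are part of the ratio.

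The domains occurred on every autosome and were partly clustered. As a share of the autosomal WT H3K4me3 islands of a chromosome they ran from 2.99% on chromosome 14 (32 of 1070, 2.05 to 4.20%) and 3.01% on chromosome 4 (63 of 2093) to 5.67% on chromosome 11 (112 of 1974, 4.69 to 6.79%) and 5.79% on chromosome 19 (47 of 812, 4.28 to 7.62%). The median log2 fold ratio of their regions lay between 0.50 (chromosome 16) and 0.69 (chromosome 10), higher in KO on all 19. The median log2 length ratio lay between 0.05 (chromosome 13) and 0.22 (chromosome 15). Scaled reads were lower in KO by the median on 18 chromosomes, lowest on chromosome 13 (−0.17), and higher on chromosome 14 (0.02). The nearest other domain lay at a median of 225.1 kb. It was within 20 kb for 138 domains (12.3%) and within 100 kb for 374 (33.3%).

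H3K27me3 islands within 10 kb were less frequent at the domains than at other islands, while the median distances were close. The nearest KO H3K27me3 island lay at a median of 246.2 kb from a domain and 227.2 kb from the other autosomal WT islands without H3K27me3. The nearest WT H3K27me3 island lay at 167.7 and 161.9 kb. Of the domains, 17 (1.51%, 0.883 to 2.41%) had a KO H3K27me3 island within 10 kb, against 3.37% of the other islands (3.14 to 3.61%), and 36 (3.20%, 2.25 to 4.41%) a WT one, against 5.22% (4.94 to 5.52%). Islands of 8 to 10 kb lay between, at 2.29% and 3.89%. The choice had removed every island that touched H3K27me3, so these shares are a description.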

How the data were processed

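The 4 lists of islands used here came 1 per ChIP library, from cells fixed in 1% formaldehyde for 10 minutes and sequenced as 50 bp reads, per the labels' protocols. Bowtie, SICER 1.1 and the build mm9 are named in the submitters' processing notes; the window (200 bp), gap (200 bp for H3K4me3, 600 bp for H3K27me3) and FDR (0.05) come from the names of the deposited lists. No source used here states the read filters. Each deposited list gives read counts of ChIP and control per island, neither scaled, a deposited p-value, a deposited adjusted p-value, and a deposited fold ratio, which equals ChIP over control counts times 1 constant per list (0.25 stands for a control count of 0). Each library was called alone.

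Positions are 1-based, with 1 added to deposited starts and ends. Islands were shared when they overlapped by 1 bp. Overlapping KO and WT H3K4me3 islands were merged into regions, and ratios taken where each library had 20 or more reads. Fold was recomputed from summed counts and the constant. Scaled reads are counts divided by the total over all shared autosomal regions. Scaled reads per kb are reads per kb divided by the pooled reads per kb of those regions. A region was called at 1.5-fold. Counting intervals of fold ratios are normal on the log scale. The members, rules and alternatives were chosen with earlier results of these data known. Domains named are the 5 widest, the 5 with most WT reads, those at the extremes of the fold and length ratios (5 each, with 500 or more WT reads), the domain with most KO islands and those nearest the 10 kb limit; any other is said to have been singled out. Genes and sequences are not given, because the tables at hand are of another build. Micrococcal nuclease and input profiles were not analysed here. Simulated data with known ratios were used to test the calculation. Python 3.11.15, numpy 2.4.6, pandas 2.3.3, scipy 1.17.1 and matplotlib 3.10.9 were used.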

Additional observations from a re-analysis of the deposited data

How the results depend on the processing

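No paired analysis was possible because each genotype has 1 library per mark. Of 70 values under other settings, 50 stayed within the interval of the reported value or within 1.5 times its count, 18 moved and 2 changed sign. The cause was not tested. The limit of 100 or more reads removed none of the 1101 regions, so the values under it could not move. The number of domains was 2563 at a limit of 8 kb and 192 at 15 kb. The share with a KO island was 99.6% without islands of high input density. The share still as wide as the limit in KO was 90.9% at 8 kb. The median log2 length ratio was 0.11 in regions with 1 KO and 1 WT island, 0.22 for each domain against its own KO islands and 0.13 at 15 kb. Chosen on KO width it was 0.33, and on mean length 0.26. The median log2 fold ratio was 0.57 for each domain against its own KO islands, 0.63 at 15 kb and 0.58 chosen on KO width. The median log2 scaled ratio was −0.082 in regions with 1 KO and 1 WT island, −0.026 for each domain against its own KO islands, −0.17 scaled to all island reads, −0.035 at 15 kb, −0.082 at 8 kb and −0.00144 chosen on mean length. It turned to 0.071 per kb of called length, scaled to the pooled reads per kb of shared regions, and to 0.031 chosen on KO width. Choices on KO width and on mean length were added after the data were seen. Reads outside islands are not in the lists, so a stretch without an island has no count, and ratios of reads also hold changes in called length.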
